A study of Mus musculus with 24 samples.

Results

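The 10 genes described here encode sensors of double-stranded or viral RNA and proteins that act beside them, namely Ddx58 (RIG-I), Ifih1 (MDA5), Dhx58 (LGP2), Eif2ak2 (PKR), Adar (ADAR1), Zbp1, Oas1a, Oas2, Oasl2 and Parp14. They were chosen by symbol, and all 10 had a row among the 12010 genes of the deposited table. Messenger RNA of B16-F10-luc2 cells, a mouse melanoma line that carries a luciferase reporter, was measured in 8 lines with 3 libraries each. The lines were the parental cells (WT), the MITF KO, the TFE3 KO, the TFEB KO, the TFEB/TFE3 DKO, the MITF/TFE3 DKO, the MITF/TFEB DKO and the TKO, which lacks all 3 factors. All of them grew untreated in DMEM with 10% FBS. The MITF KO carries a frameshift and, by the study's account, may still make a little shortened MITF, and TFE3 and TFEB were removed with CRISPR-Cas9 from either the parental or the MITF KO cells. Each KO line was isolated as a clone, so the loss of a factor and other differences between clones cannot be told apart. Nothing in the sources says that the 3 libraries of a line were separate cultures, so the p-values measure the spread between libraries, which may be technical.

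Levels are CPM, read counts scaled to a common library size, from 3′-end libraries of 18300902 to 26667877 reads on genes, in which the reads of a gene do not grow with its length. Changes are differences in log2(CPM + 1), tested in a limma fit of the 24 libraries. A gene was called upregulated or downregulated at a fold change of at least 2 on that scale and an unadjusted p under 0.05, the study's threshold. Genes with few reads change less on that scale than in ratio, so ratios of mean CPM are given beside it. Where the 3 libraries of a line held 1 to 3 reads of a gene in all, the ratio is of reads summed over libraries and divided by summed library size, with its counting interval. Adjusted p-values are over all 12010 genes. In RNA from whole cultures, fewer cells with a transcript and less of it per cell cannot be told apart.

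RIG-I and MDA5 are helicases in the cytoplasm that recognise RNA of viruses and signal through the adaptor MAVS to induce type I interferon, and LGP2 is a relative that lacks the signalling domains and modulates both. PKR halts translation when it binds double-stranded RNA, ADAR1 edits adenosine to inosine in such RNA and so keeps the cell's own transcripts from being sensed, and ZBP1 detects nucleic acid in the left-handed Z form. The oligoadenylate synthetases (OAS) make a small nucleotide messenger that leads to the breakdown of RNA. All of these genes are classical interferon-stimulated genes, which means that interferon raises their transcription through factors that include STAT2 and IRF9. In melanoma cells such genes can run at a basal level without added interferon.

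The targeted transcripts were read first. Tfeb had 7.87 to 10.3 CPM in the parental libraries and 2.06 to 5.27 CPM in the 4 lines without TFEB, and Tfe3 had 35.4 to 38.4 CPM in the parental libraries and 8.01 to 21.7 CPM in the 4 lines without TFE3. Mitf RNA was not lower in the MITF KO, with 1364, 1470.5 and 1358 CPM against 763, 768 and 797 CPM in the parental cells; an indel leaves the 3′ end that these libraries read, so this level checks nothing about the edit. All 7 melanocyte markers examined were in the table, with a summed level of 15830 to 40320 CPM in single libraries. The other marker lists had few genes in the table: 3 of 10 for leukocytes (1.23 to 5.90 CPM summed), 2 of 6 for fibroblasts (9.73 to 45.3 CPM) and 1 of 4 for endothelial cells (0 to 31.6 CPM). The defining leukocyte marker Ptprc was not analysed here, having no row.

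The windows around the start sites were read because the genes moved together across the lines. RefSeq windows of 250 bases before to 50 after the start (build GRCm38.p6) matched 6 of the 10 genes by symbol. The interferon-stimulated response element (ISRE), which the complex of STAT2 and IRF9 binds, was searched on both strands as GAAA, any 2 bases and GAAA, and was found in 4 of these 6 genes, Ddx58, Ifih1, Eif2ak2 and Oas1a. It occurs in 3.44% of all 32851 windows. The pattern TCANGTG covers the TCACGTG and TCATGTG of the study's MITF family sites, but its open base also lets in other forms. It was found in 1 of the 6 (Oasl2, as CACCTGA) against 14.3% of all windows. That match reads TCAGGTG on the other strand, so it is neither TCACGTG nor TCATGTG. A match says only that these letters are present. The genes were already known as interferon-stimulated genes, so the share with an ISRE is no test of why they moved together. That was not tested. The 4 stretches with an ISRE are printed 5′ to 3′ on the strand of the gene, which is the minus strand for each, with the ISRE in capitals. That of Ddx58 lies at chr4:40239804-40239833, that of Ifih1 at chr2:62646206-62646235, that of Eif2ak2 at chr17:78882535-78882564 and that of Oas1a, where 2 matches overlap and the stretch ends at the last base before the start, at chr5:120907526-120907645.
Ddx58: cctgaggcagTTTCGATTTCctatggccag
Ifih1: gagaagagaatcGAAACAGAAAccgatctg
Eif2ak2: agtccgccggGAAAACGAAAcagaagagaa
Oas1a: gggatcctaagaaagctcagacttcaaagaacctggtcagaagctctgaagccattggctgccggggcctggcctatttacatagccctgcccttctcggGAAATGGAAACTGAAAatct

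Loss of MITF alone came with low levels of all 10 genes. In the MITF KO, 10 of 10 genes were downregulated relative to parental cells, where 2.99% of all genes were. The mean level was 4.01-fold (Adar) to 55.3-fold (Oas1a) lower for the 7 genes with more than 3 reads in all in the MITF KO, which leaves out Zbp1, Oas2 and Oasl2, and the median difference was -4.10 (log2) beside 0.000594 over all genes. Removal of TFE3 or of TFEB from the cells without MITF went with high levels again: 10 of 10 genes were upregulated in the MITF/TFE3 DKO relative to the MITF KO (background 3.39%) and 10 of 10 in the MITF/TFEB DKO relative to the MITF KO (6.91%), with median differences of 3.86 and 4.39. Removal of both did not: in the TKO, 10 of 10 genes were downregulated relative to parental cells (6.41%) and 10 of 10 relative to the MITF/TFEB DKO (1.98%), with medians of -2.84 and -3.37.

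**Figure D1:**
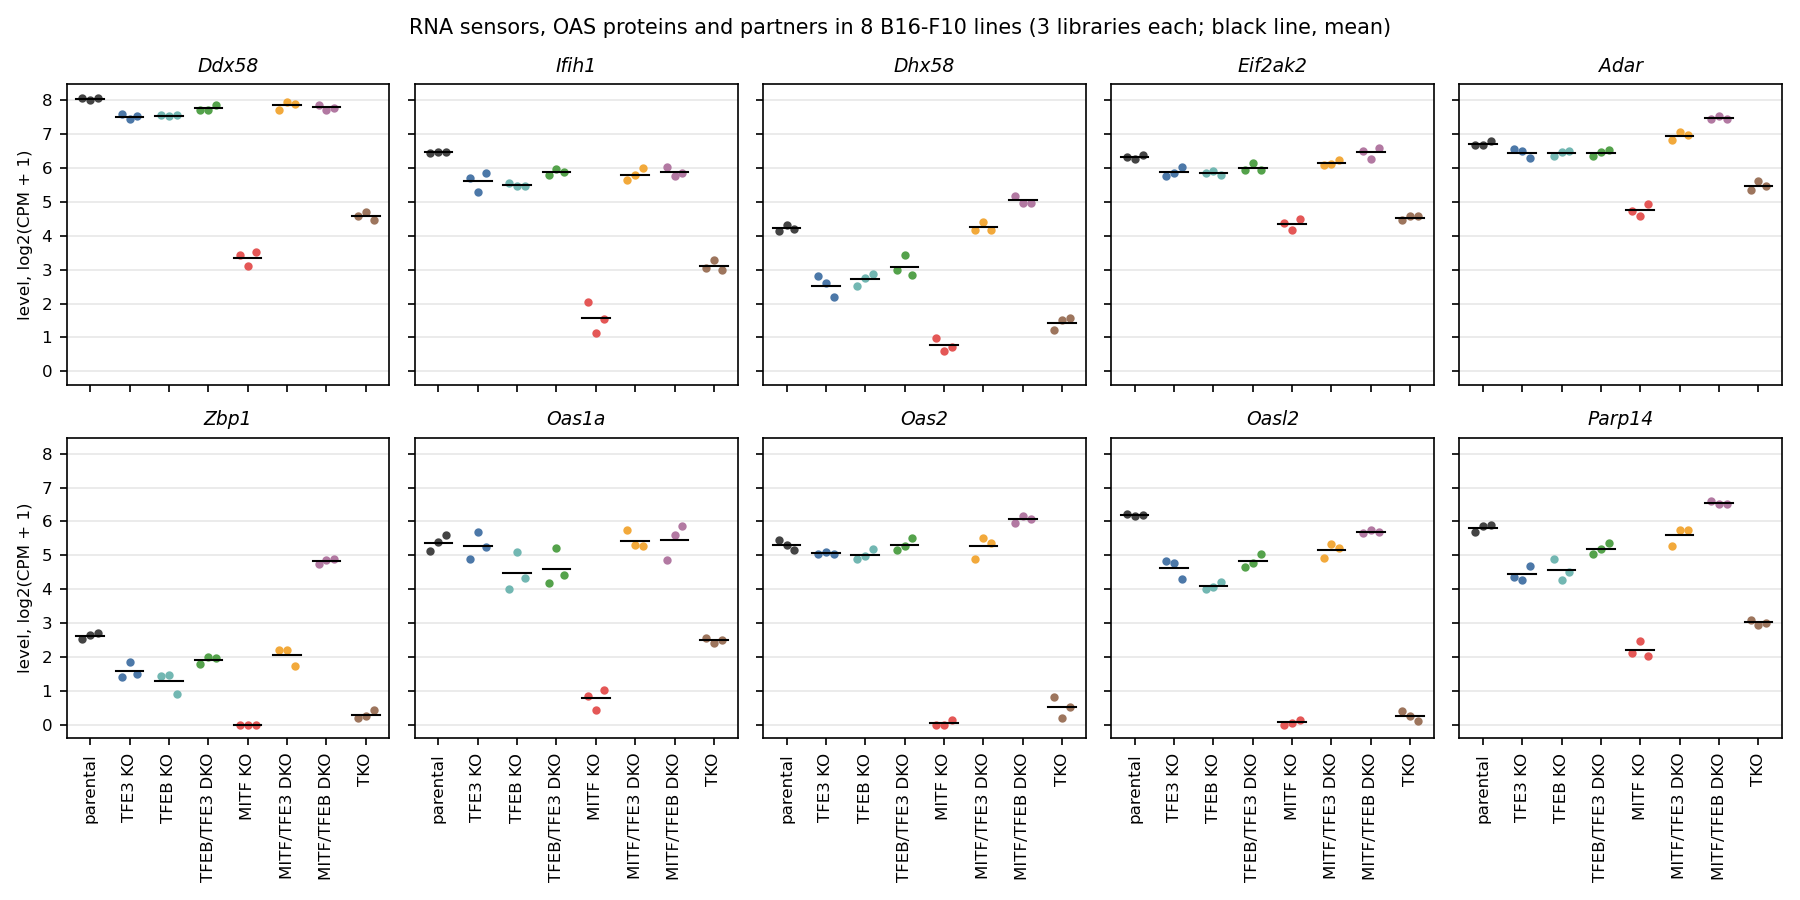
Level of each of the 10 genes, as log2(CPM + 1), in the 8 lines; points are the 3 libraries of a line and the black line is their mean. In every panel the MITF KO libraries have the lowest mean and the TKO libraries the next, while the means of the MITF/TFE3 DKO and MITF/TFEB DKO lie within 2.06-fold of the parental cells, apart from Zbp1 in the MITF/TFEB DKO (5.33-fold higher).

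**Figure D2:**
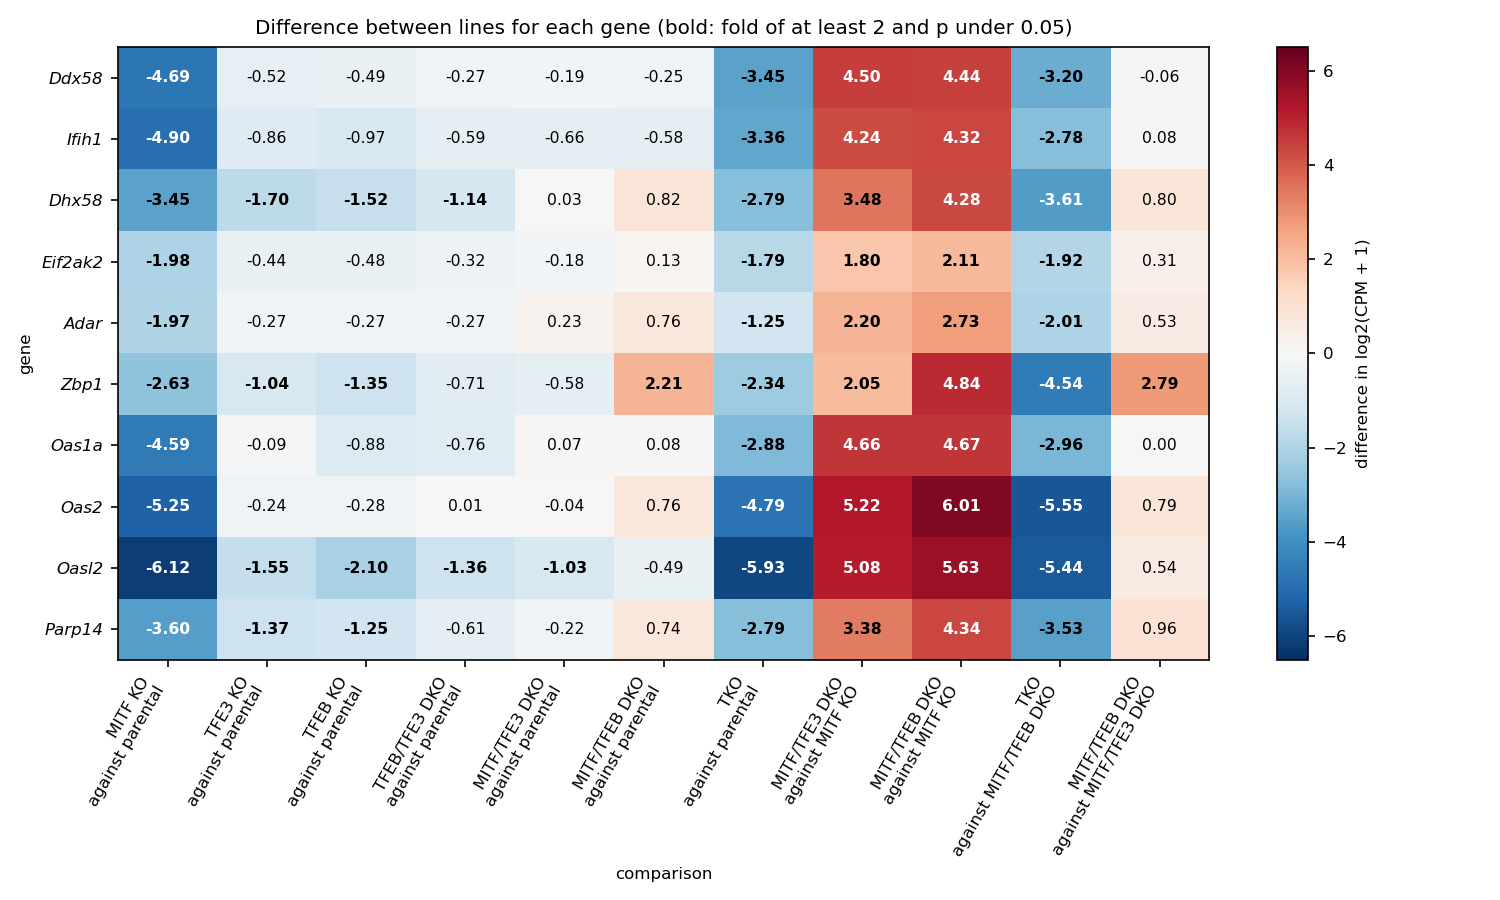
Difference in log2(CPM + 1) for each gene (rows) in the 11 comparisons of lines (columns), with called differences in bold. The MITF KO column runs from -1.97 (Adar) to -6.12 (Oasl2), and the columns of both MITF DKOs relative to the MITF KO are positive for all 10 genes.

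The receptors of the RIG-I family were the first group. Ddx58 (chr4:40203772-40239852 (minus strand), mm39) had 267, 256 and 266 CPM in the parental cells, 9.74, 7.59 and 10.52 CPM in MITF KO libraries and 22.9, 25.2 and 21.3 CPM in TKO libraries. It had 210.2, 247 and 236 CPM in MITF/TFE3 DKO libraries and 233, 211 and 218 CPM in MITF/TFEB DKO libraries. The MITF KO and TKO libraries lay far below all others, and both DKOs came close to the parental cells without reaching them. Ddx58 was 28.3-fold lower in the MITF KO than in the parental cells, a difference of -4.69 ± 0.0918 (SE, limma, adjusted p = 9.73e-22), and 23.8-fold higher in the MITF/TFEB DKO than in the MITF KO.

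Ifih1 (chr2:62425714-62476607 (minus strand)), the sensor of long double-stranded RNA, followed the same course. It had 86.1, 88.2 and 88.9 CPM in the parental cells, 3.11, 1.205 and 1.91 CPM in MITF KO libraries and 7.25, 8.797 and 7.01 CPM in TKO libraries. The MITF/TFE3 DKO had 49.4, 54.2 and 62.9 CPM, while the MITF/TFEB DKO had 64.9, 53.2 and 57.6 CPM. The DKO libraries overlapped with each other and all of them stayed below the parental libraries. Its fall in the MITF KO was 42.3-fold, or -4.899 ± 0.163 (SE, limma, adjusted p = 4.04e-17), and it remained 1.498-fold lower in the MITF/TFEB DKO than in the parental cells, -0.58 ± 0.163 (SE, limma, adjusted p = 0.00445), which is under the fold threshold.

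Dhx58 (chr11:100585710-100595097 (minus strand)), the modulator of RIG-I and MDA5, was the 1 gene of this family with its highest level in the MITF/TFEB DKO. It had 16.8, 19.1 and 17.3 CPM in the parental cells, 0.989, 0.522 and 0.654 CPM in MITF KO libraries, 17.1, 20.3 and 17.1 CPM in MITF/TFE3 DKO libraries, 35.4, 30.6 and 30.6 CPM in MITF/TFEB DKO libraries and 1.35, 1.85 and 1.98 CPM in TKO libraries. The MITF/TFEB DKO libraries lay above those of every other line, and the MITF/TFE3 DKO overlapped with the parental cells. Against the parental cells the difference in the MITF/TFEB DKO was 0.82 ± 0.171 (SE, limma, adjusted p = 0.000292), a ratio of 1.81, and in the MITF KO it was -3.45 ± 0.171 (SE, limma, adjusted p = 1.12e-13).

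PKR and ADAR1, which both bind double-stranded RNA, had the smallest differences of the 10 genes between the MITF KO and the parental cells. Eif2ak2 (chr17:79159972-79190012 (minus strand)) had 78.95, 76.6 and 83.6 CPM in the parental cells, 20.01, 17.1 and 21.4 CPM in MITF KO libraries, 67.6, 68.5 and 75.01 CPM in MITF/TFE3 DKO libraries, 90.03, 76.95 and 95.9 CPM in MITF/TFEB DKO libraries and 21.1, 22.8 and 22.9 CPM in TKO libraries. The MITF KO and TKO libraries overlapped with each other at the bottom, and the MITF/TFEB DKO overlapped with the parental cells at the top. The MITF KO was 4.08-fold below the parental cells, -1.98 ± 0.0978 (SE, limma, adjusted p = 1.06e-13).

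Adar (chr3:89622329-89660753 (plus strand)) had 103, 100.9 and 111 CPM in the parental cells, 25.6, 23.2 and 29.7 CPM in MITF KO libraries, 112, 134 and 125 CPM in MITF/TFE3 DKO libraries, 174, 187 and 174 CPM in MITF/TFEB DKO libraries and 39.6, 47.9 and 43.3 CPM in TKO libraries. The MITF/TFEB DKO libraries lay above those of every other line. The MITF/TFE3 DKO libraries lay only narrowly above the parental ones, a difference that was not called, 0.23 ± 0.0966 (SE, limma, adjusted p = 0.058). Adar was 4.01-fold lower in the MITF KO than in the parental cells, -1.97 ± 0.0966 (SE, limma, adjusted p = 9.26e-14). In the MITF/TFEB DKO it stood 1.699-fold above the parental cells, 0.76 ± 0.0966 (SE, limma, adjusted p = 5.94e-07), again under the fold threshold. The 3′ end of Adar overlaps Chrnb2 on the opposite strand of the annotation, and whether the counting used strand is not given in the sources used here.

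Zbp1 was the gene with the largest difference between the MITF/TFEB DKO and the parental cells. Zbp1 (chr2:173033815-173060724 (minus strand)), whose protein can start necroptosis, had 4.79, 5.28 and 5.48 CPM in the parental cells, 3.61, 3.63 and 2.33 CPM in MITF/TFE3 DKO libraries and 25.7, 28.3 and 28.8 CPM in MITF/TFEB DKO libraries. The MITF KO had 0 reads in each of its 3 libraries, and the TKO had 4.0, 4.0 and 8.0 reads. The MITF/TFEB DKO libraries lay far above every other line, and no other line exceeded the parental cells. Zbp1 was 5.33-fold higher in the MITF/TFEB DKO than in the parental cells, 2.21 ± 0.163 (SE, limma, adjusted p = 8.72e-11), which made it the 1 gene of the 10 called upregulated there, where 8.78% of all genes were. With 3 reads per library as the limit that a count of 0 allows, Zbp1 was at least 37.1-fold lower in the MITF KO than in the parental cells and at least 198-fold higher in the MITF/TFEB DKO than in the MITF KO.

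Parp14 (chr16:35653231-35692003 (minus strand)), a mono-ADP-ribosyltransferase induced by interferon, had 50.1, 57.1 and 58.1 CPM in the parental cells, 3.34, 4.58 and 3.05 CPM in MITF KO libraries, 37.8, 52.7 and 52.3 CPM in MITF/TFE3 DKO libraries, 95.5, 91.4 and 90.9 CPM in MITF/TFEB DKO libraries and 7.58, 6.705 and 7.01 CPM in TKO libraries. The MITF/TFEB DKO libraries lay above all others, and those of the MITF/TFE3 DKO overlapped with the parental cells. The MITF KO was 15.1-fold below the parental cells, -3.602 ± 0.156 (SE, limma, adjusted p = 7.38e-15), and the MITF/TFEB DKO 1.68-fold above them, 0.74 ± 0.156 (SE, limma, adjusted p = 0.00032).

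The OAS genes covered the widest range. Oas2 (chr5:120868398-120887933 (minus strand)) had 42.8, 38.5 and 34.5 CPM in the parental cells, 28.9, 44.99 and 40.3 CPM in MITF/TFE3 DKO libraries and 61.2, 70.02 and 65.9 CPM in MITF/TFEB DKO libraries. It had 0.0, 0.0 and 2.0 reads in the MITF KO libraries and 21.0, 3.0 and 10.0 reads in those of the TKO. The MITF KO was thus close to the limit of detection, and the MITF/TFEB DKO libraries lay above every other line. The ratio of summed reads, parental cells to MITF KO, was 1246, with an exact 95% counting interval of 344 to 10290, and the difference was -5.25 ± 0.155 (SE, limma, adjusted p = 3.48e-18). The MITF/TFEB DKO stood 1.704-fold above the parental cells, 0.76 ± 0.155 (SE, limma, adjusted p = 0.000244).

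Oasl2 (chr5:115034997-115050295 (plus strand)), which encodes an OAS-like protein, had 73.8, 69.9 and 71.9 CPM in the parental cells, 29.1, 39.1 and 36.3 CPM in MITF/TFE3 DKO libraries and 49.3, 53.02 and 50.3 CPM in MITF/TFEB DKO libraries. Its reads numbered 0.0, 1.0 and 2.0 in the MITF KO and 9.0, 4.0 and 2.0 in the TKO. Both DKOs lay between the low lines and the parental cells and did not overlap with either. The ratio of summed reads, parental cells to MITF KO, was 1546 (exact 95% counting interval 529 to 7498), and the difference of -6.12 ± 0.140 (SE, limma, adjusted p = 2.14e-20) was the largest of the 10 genes on the log2 scale. Oasl2 was also the 1 gene of the 10 that was downregulated in the MITF/TFE3 DKO relative to parental cells (background 2.37%), 2.06-fold or -1.03 ± 0.140 (SE, limma, adjusted p = 3.99e-06). That call was lost without MITF/TFE3 DKO replicate 1 (-0.91) and with a pseudocount of 5 (-0.96). These intervals cover counting error only.

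Oas1a (chr5:121031070-121046449 (minus strand)) had the largest standard error of the 10 genes. It had 33.8, 40.7 and 47.1 CPM in the parental cells, 0.800, 0.361 and 1.04 CPM in MITF KO libraries, 52.2, 38.3 and 37.8 CPM in MITF/TFE3 DKO libraries, 28.3, 47.02 and 56.97 CPM in MITF/TFEB DKO libraries and 4.92, 4.28 and 4.601 CPM in TKO libraries. The libraries of the parental cells and both DKOs overlapped, and those of the MITF KO and TKO lay below them and apart from each other. The fall in the MITF KO, where its libraries held 17, 9 and 19 reads, was 55.3-fold, -4.59 ± 0.280 (SE, limma, adjusted p = 5.37e-12), while the difference between the MITF/TFEB DKO and the parental cells was within the spread, 0.08 ± 0.280 (SE, limma, adjusted p = 0.834). Of the 50-base stretches at the annotated 3′ ends of Oas1a, 42.9% also occur somewhere in the transcripts of Oas1g, not only at its 3′ end. Of those at the 3′ end of Oas1g, 15.1% occur in transcripts of Oas1a. Reads may thus have been split between the pair, to an extent that was not measured. Oas1g made up 23.7% to 36.6% of their summed CPM in the single libraries of the 6 lines other than the MITF KO and TKO.

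Other genes of the OAS family showed whether the pattern ran through the whole family. Of the 6 genes of the list of OAS and related proteins that were in the table besides the 3 above, 4 were downregulated in the MITF KO relative to parental cells, Oas1b, Oas1c, Oas1g and Oasl1, and all 4 were downregulated in the TKO relative to the MITF/TFEB DKO. Oas1b, which carries a premature stop in most laboratory mouse strains, had 23.9, 19.5 and 18.6 CPM in the parental cells, 0.141, 0.0803 and 0.109 CPM in MITF KO libraries, 34.4, 31.5 and 29.9 CPM in MITF/TFEB DKO libraries and 1.09, 1.33 and 0.817 CPM in TKO libraries, a course like that of Oas2. Oas1c differed by -2.44 (limma, adjusted p = 1.93e-10) in the MITF KO and by 0.44 (limma, adjusted p = 0.0407) in the MITF/TFEB DKO, both relative to parental cells. Of their 3′-end stretches of 50 bases, 8.83% (Oas1b), 6.98% (Oas1c) and 15.1% (Oas1g) also occur in other genes.

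Oasl1, which lies next to Oasl2 on chromosome 5 (chr5:115061294-115075974 (plus strand)), did not follow the others in the MITF/TFEB DKO. It had 24.03, 26.01 and 26.3 CPM in the parental cells, 11.6, 14.7 and 10.2 CPM in MITF/TFE3 DKO libraries and 1.37, 1.01 and 1.87 CPM in MITF/TFEB DKO libraries. The MITF KO had 0 reads in all 3 libraries and the TKO had 6.0, 0.0 and 1.0 reads. The MITF/TFEB DKO libraries thus lay far below the parental and MITF/TFE3 DKO libraries, unlike those of Oasl2. Oasl1 was 17.96-fold lower in the MITF/TFEB DKO than in the parental cells, -3.47 (limma, adjusted p = 2.98e-14), and it differed by -2.45 (limma, adjusted p = 2.56e-11) from the MITF/TFE3 DKO, where Oasl2 differed by 0.54 ± 0.140 (SE, limma, adjusted p = 0.00271).

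**Figure D3:**
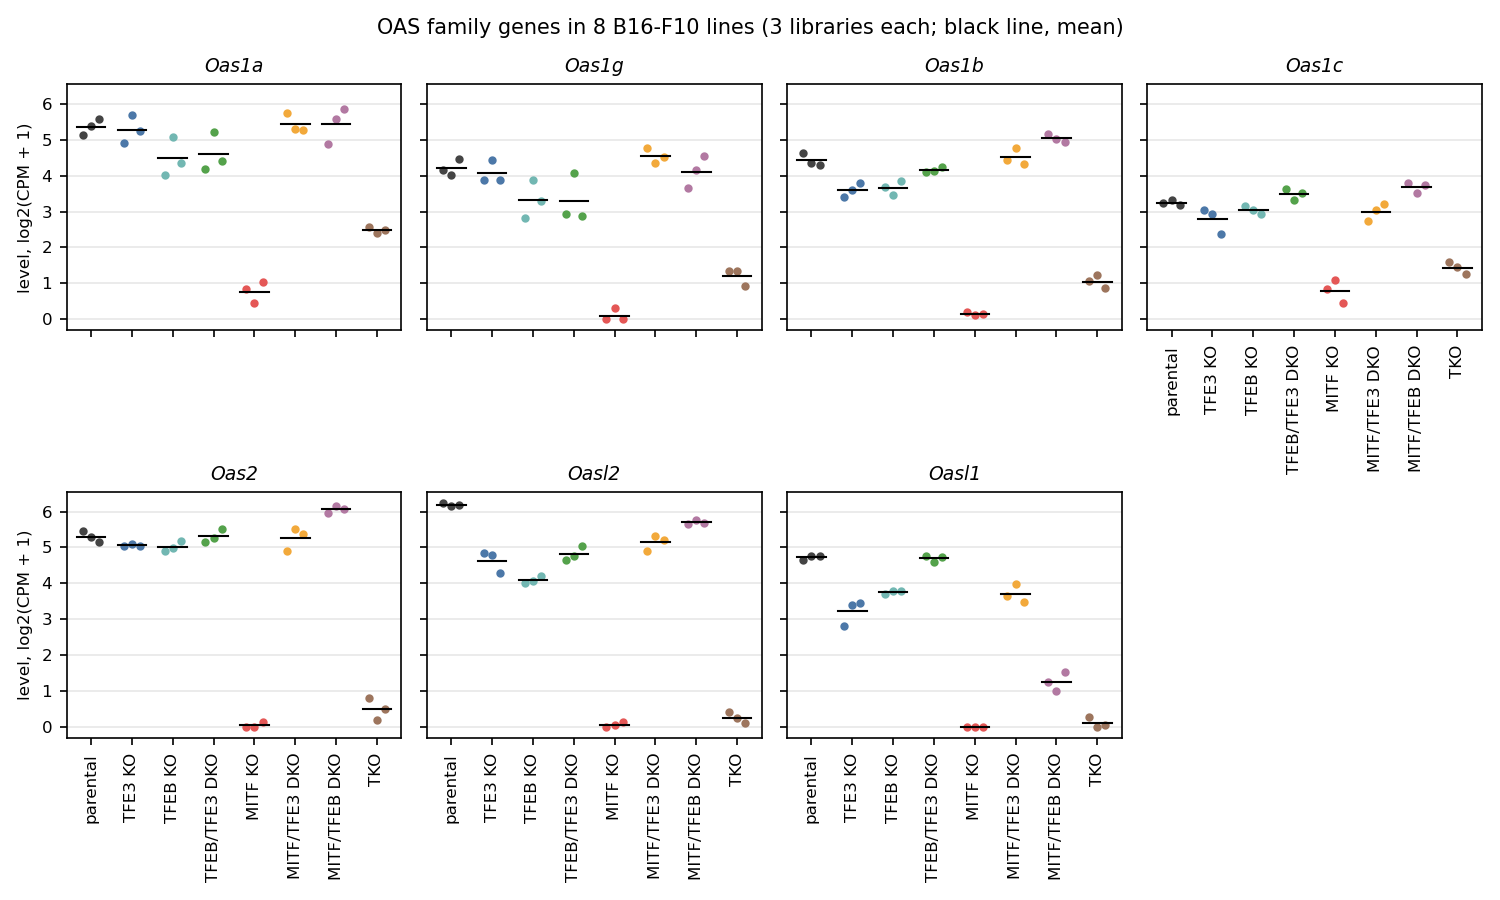
Level of 7 OAS family genes, as log2(CPM + 1), in the 8 lines, with points for the 3 libraries of a line and a black line for their mean. In the MITF/TFEB DKO, Oasl1 stands at 1.37, 1.01 and 1.87 CPM while Oasl2 stands at 49.3, 53.02 and 50.3 CPM.

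The next question was what went with loss of TFE3 or TFEB where MITF was intact. The levels fell in part: 4 of the 10 genes were downregulated in the TFE3 KO relative to parental cells (background 1.34%) and 4 in the TFEB KO (0.591%), in each case Dhx58, Zbp1, Oasl2 and Parp14. Both comparisons share the parental libraries. In the TFEB/TFE3 DKO, 2 genes were downregulated (background 0.383%), Dhx58 and Oasl2. Oasl2 had 27.5, 26.4 and 18.6 CPM in TFE3 KO libraries, 15.1, 15.7 and 17.4 CPM in TFEB KO libraries and 24.2, 26.3 and 31.9 CPM in TFEB/TFE3 DKO libraries. None of these libraries reached the parental level of 69.9 to 73.8 CPM or came near the MITF KO. The difference was -1.55 ± 0.140 (SE, limma, adjusted p = 5.31e-08) in the TFE3 KO. For the TFEB KO it was -2.096 ± 0.140 (SE, limma, adjusted p = 5.05e-10), a 4.47-fold fall, and in the TFEB/TFE3 DKO -1.36 ± 0.140 (SE, limma, adjusted p = 1.06e-06).

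Dhx58 had 5.98, 5.11 and 3.55 CPM in TFE3 KO libraries, 4.69, 5.804 and 6.29 CPM in TFEB KO libraries and 6.99, 9.86 and 6.15 CPM in TFEB/TFE3 DKO libraries. Neighbouring lines of these 3 overlapped, and all lay below the parental libraries. The differences were -1.696 ± 0.171 (SE, limma, adjusted p = 2.97e-07), -1.52 ± 0.171 (SE, limma, adjusted p = 2.79e-06) and -1.14 ± 0.171 (SE, limma, adjusted p = 0.000116), the last of which was not called with a pseudocount of 5 (-0.86). Zbp1 had 1.65, 2.597 and 1.82 CPM in TFE3 KO libraries, 1.704, 1.78 and 0.879 CPM in TFEB KO libraries and 2.43, 2.997 and 2.91 CPM in TFEB/TFE3 DKO libraries. At these levels of 19 to 62 reads per library, its differences were -1.04 ± 0.163 (SE, limma, adjusted p = 0.000113), -1.35 ± 0.163 (SE, limma, adjusted p = 6.48e-06) and -0.71 ± 0.163 (SE, limma, adjusted p = 0.00698). The call in the TFE3 KO was lost without TFE3 KO replicate 1 (-0.96), with quantile normalization (-0.98) and with a pseudocount of 5 (-0.54), and that in the TFEB KO with a pseudocount of 5 (-0.66).

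Parp14 had 19.4, 18.5 and 24.5 CPM in TFE3 KO libraries, 28.97, 18.4 and 21.6 CPM in TFEB KO libraries and 31.9, 35.5 and 39.9 CPM in TFEB/TFE3 DKO libraries. The 2 single KOs overlapped, and the TFEB/TFE3 DKO lay between them and the parental cells. Its difference was -1.37 ± 0.156 (SE, limma, adjusted p = 1.63e-06) in the TFE3 KO, where the median difference of the 100 genes around it was -0.315. In the TFEB KO it was -1.25 ± 0.156 (SE, limma, adjusted p = 1.07e-05), where that median was -0.0446.

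The other 6 genes were not called in these 3 lines, and their values were mostly a little below the parental ones. Ddx58 had 192, 173 and 185 CPM in TFE3 KO libraries, 188, 185 and 188 CPM in TFEB KO libraries and 209.9, 212 and 231 CPM in TFEB/TFE3 DKO libraries, all below the parental libraries. Ifih1 came nearest to the fold threshold, at -0.97 ± 0.163 (SE, limma, adjusted p = 0.000503) in the TFEB KO, a ratio of 1.98. Eif2ak2 had differences of -0.44, -0.48 and -0.32 in the TFE3 KO, TFEB KO and TFEB/TFE3 DKO (limma, highest adjusted p = 0.0416). Adar had -0.27, -0.27 and -0.27 (limma, lowest adjusted p = 0.0708), and Oas2 -0.24, -0.28 and 0.01 (lowest adjusted p = 0.333). Oas1a had 15.1, 32.9 and 19.3 CPM in TFEB KO libraries, where 1 library lay apart from the others, and the difference from the parental cells was -0.88 ± 0.280 (SE, limma, adjusted p = 0.0745). Without that library, replicate 2, it was -1.19 and would have been called, as it would without parental replicate 1 (-1.01). In the TFEB/TFE3 DKO it would have been called without replicate 2 (-1.07).

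Cells in which TFE3 was the remaining factor (MITF/TFEB DKO) were then set beside those in which TFEB was (MITF/TFE3 DKO). Zbp1 was the 1 gene of the 10 called between them, 8.65-fold higher in the MITF/TFEB DKO, 2.79 ± 0.163 (SE, limma, adjusted p = 2.91e-12), where 5.7% of all genes were called higher. Of the other 9 genes, Parp14 came nearest to the threshold at 0.96 ± 0.156 (SE, limma, adjusted p = 2.25e-05) and passed it without MITF/TFE3 DKO replicate 2 or 3 (1.04 in either case), and Dhx58, Oas2 and Adar differed by 0.80 ± 0.171 (SE, limma, adjusted p = 0.000523), 0.79 ± 0.155 (SE, limma, adjusted p = 0.000198) and 0.53 ± 0.0966 (SE, limma, adjusted p = 9.65e-05). Oasl2 and Eif2ak2 differed by 0.54 (limma, adjusted p = 0.00271) and 0.31 (limma, adjusted p = 0.0124). These 6 genes were higher in every MITF/TFEB DKO library than in any MITF/TFE3 DKO library. For Ddx58, Ifih1 and Oas1a the libraries of the 2 lines overlapped, with differences of -0.06 ± 0.0918 (SE, limma, adjusted p = 0.614), 0.08 ± 0.163 (SE, limma, adjusted p = 0.724) and 0.00 ± 0.280 (SE, limma, adjusted p = 0.992).

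The difference that went with loss of TFE3 in cells without MITF changed between lines with and without TFEB. Each of these lines is a clone, so loss of a factor and other differences between clones cannot be told apart here. With TFEB present (MITF/TFE3 DKO against MITF KO) the 10 genes rose, and with TFEB absent (TKO against MITF/TFEB DKO) they fell. The difference between these effects was tested in the same fit and called at an adjusted p under 0.05, and 10 of 10 genes were called lower (background 13.1%). For Ddx58 the effects were 4.502 and -3.202, which differ by -7.704 ± 0.130 (SE, limma, adjusted p = 2.81e-23). The range ran from -3.73 ± 0.138 (SE, limma, adjusted p = 2.42e-16) for Eif2ak2 to -10.76 ± 0.219 (SE, limma, adjusted p = 1.26e-21) for Oas2.

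The difference that went with loss of TFEB also changed between lines with and without MITF, again with 1 line per genotype. In the parental background 4 of the genes were downregulated and 6 were not called, and in the MITF KO background 10 were upregulated. Adar, Oas1a and Oas2 had no clear change in the parental background (limma, adjusted p = 0.119, 0.0745 and 0.396), so an opposite effect is not shown for them. The difference between the effects was positive for 10 of 10 genes, where 17.7% of all genes were called higher. It ran from 2.59 ± 0.138 (SE, limma, adjusted p = 4.43e-13) for Eif2ak2 to 7.72 ± 0.199 (SE, limma, adjusted p = 2.39e-19) for Oasl2, whose effects were -2.096 with MITF and 5.63 without.

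Ranked by mean level, the MITF KO was the lowest line and the TKO the next lowest for all 10 genes. The libraries of these 2 lines did not overlap for 8 genes. They overlapped for Eif2ak2 (20.01, 17.1 and 21.4 against 21.1, 22.8 and 22.9 CPM) and for Oasl2, whose levels there rest on few reads. At the top stood the MITF/TFEB DKO for 7 genes (Dhx58, Eif2ak2, Adar, Zbp1, Oas1a, Oas2 and Parp14) and the parental cells for 3 (Ddx58, Ifih1 and Oasl2). The top line overlapped with the next for Eif2ak2 and Oas1a and was apart from it for the other 8 genes. In the middle of the order, the TFE3 KO, TFEB KO and TFEB/TFE3 DKO overlapped with at least 1 neighbour for each gene, except the TFEB KO for Oasl2, which was apart on both sides.

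Over the 8 line means, the 10 genes were alike but not identical. The median Pearson correlation over the 45 pairs of genes was 0.938, and the lowest, 0.711, was between Ddx58 and Zbp1; the points share libraries, so no test is given. Among 1404 genes with a mean of at least 5 CPM and a spread between lines, the 6 whose pattern was most like the mean of the 10 were Ddx60 (r = 0.996), Oas1b (0.996), Mndal (0.995), Cmpk2 (0.994), Parp10 (0.994) and Igtp (0.993). Ddx60, a helicase that has been linked to RIG-I signalling, had 36.7, 31.01 and 29.4 CPM in the parental cells, 0 reads in the 3 MITF KO libraries, 21.6, 23.04 and 26.8 CPM in MITF/TFE3 DKO libraries, 52.1, 44.5 and 44.6 CPM in MITF/TFEB DKO libraries and 0.911, 0.808 and 1.63 CPM in TKO libraries. Mndal, of the Ifi200 family of nuclear DNA-binding proteins, had 202, 217 and 210.3 CPM in the parental cells, 1.04, 0.643 and 0 CPM in MITF KO libraries and 517, 469 and 491 CPM in MITF/TFEB DKO libraries. Igtp, an interferon-induced GTPase, was 285-fold lower in the MITF KO than in the parental cells.

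The rest of the pathway was read from lists of known partners, each by its count and its median, beside the backgrounds given above. The genes that carry the interferon signal split in 2. Of 10 in the table, 4 were downregulated in the MITF KO relative to parental cells (median -0.52), 6 were upregulated in the MITF/TFEB DKO relative to the MITF KO (median 1.15) and 3 were downregulated in the TKO relative to the MITF/TFEB DKO (median -0.42). Irf9 had 134, 157 and 144 CPM in the parental cells, 5.602, 5.54 and 4.47 CPM in MITF KO libraries, 127.7, 146 and 124.5 CPM in MITF/TFE3 DKO libraries, 237, 203 and 199 CPM in MITF/TFEB DKO libraries and 24.2, 24.5 and 23.0 CPM in TKO libraries. In the MITF KO, Stat2 differed by -2.24 (limma, adjusted p = 2.04e-14), Irf9 by -4.56 (limma, adjusted p = 9.62e-20) and Usp18, the inhibitor of the interferon receptor, by -6.802 (limma, adjusted p = 1.39e-22). The receptor chains and the kinase above them, named after their values were seen, were not called in the MITF KO: Ifnar1 differed by -0.25 (limma, adjusted p = 0.125), Ifnar2 by -0.02 (limma, adjusted p = 0.890) and Jak1 by 0.52 (limma, adjusted p = 0.000189). Interferon beta itself (Ifnb1) was not analysed here.

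Of the 14 partners and adaptors of RNA sensing in the table, 2 were downregulated and 1 upregulated in the MITF KO relative to parental cells (median -0.10). The upregulated gene was Rnf125, named after its values were seen, with a mean of 0.672 CPM in the parental cells and 4.84 CPM in the MITF KO. The share of all genes upregulated there is not given here. In the MITF/TFEB DKO relative to the MITF KO, 3 were upregulated, Tlr3, Rnf135 and Zc3hav1. The same 3 genes were downregulated in the TKO relative to the MITF/TFEB DKO. Tlr3, the endosomal receptor for double-stranded RNA, had 25.9, 26.4 and 25.8 CPM in the parental cells, 12.3, 11.4 and 15.1 CPM in MITF KO libraries and 59.3, 51.1 and 60.6 CPM in MITF/TFEB DKO libraries, above all other lines. Zc3hav1, the antiviral protein ZAP, differed by -1.36 (limma, adjusted p = 1.09e-11) in the MITF KO, and Rnf135, a ubiquitin ligase of RIG-I, by -0.86 (limma, adjusted p = 0.00763). Irf7, named after its values were seen, was at 1.66 CPM on average in the parental cells, had 0 reads in the MITF KO and TKO, and was at 1.35 CPM in MITF/TFE3 DKO libraries and 0.385 CPM in MITF/TFEB DKO libraries.

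Of the 9 partners of PARP14 and related enzymes, 5 were downregulated in the MITF KO relative to parental cells (median -2.27), 6 were upregulated in the MITF/TFEB DKO relative to the MITF KO and 5 were downregulated in the TKO relative to the MITF/TFEB DKO. Dtx3l and Parp9, whose proteins form a complex, had 99.4, 92.9 and 95.02 CPM and 90.6, 82.99 and 76.1 CPM in the parental cells and 3.15, 3.53 and 2.83 CPM and 2.401, 4.42 and 3.81 CPM in MITF KO libraries. Parp12 differed by -5.01 (limma, adjusted p = 7.79e-19) and Parp10 by -3.42 (limma, adjusted p = 1.17e-16) in the MITF KO. Among 11 genes of DNA sensing, 4 were downregulated in the MITF KO and 5 upregulated in the MITF/TFEB DKO relative to the MITF KO. Ifi203 had 233, 244 and 232 CPM in the parental cells, 0.471, 0.843 and 0.436 CPM in MITF KO libraries, 499, 504 and 537 CPM in MITF/TFEB DKO libraries and 9.25, 11.98 and 6.79 CPM in TKO libraries. Ifi204 went from 37.9, 39.2 and 35.8 CPM in the parental cells to 0 reads in all MITF KO libraries and 66.3, 55.5 and 58.6 CPM in MITF/TFEB DKO libraries. Enpp1, which degrades the messenger of the DNA sensor cGAS, differed by 1.57 (limma, adjusted p = 2.12e-06) in the MITF/TFEB DKO relative to parental cells, at levels under 5 CPM.

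Few genes of 3 further lists were called. None of 9 eIF2alpha kinases and partners of PKR was called in the MITF KO relative to parental cells (median -0.16, and 0 calls with edgeR also), and Eif2s1, which encodes the target of PKR, differed there by -0.84 (limma, adjusted p = 2.51e-05), while the PKR inhibitor Dnajc3 differed by 0.29 (limma, adjusted p = 0.00509). Of 8 other proteins that bind or edit double-stranded RNA, 1 was downregulated there, Ddx60, and Dicer1 and Dhx9 differed by -0.37 (limma, adjusted p = 0.0262) and -0.17 (limma, adjusted p = 0.314). Of 4 genes of the death pathway downstream of ZBP1, 1 (Mlkl, named after its values were seen) was downregulated in the MITF KO and 0 were called in the MITF/TFEB DKO relative to parental cells by limma and by edgeR, where Casp8 differed by 0.45 (limma, adjusted p = 0.00119) and Fadd by -0.13 (limma, adjusted p = 0.345). Mlkl, though not called there, had 27.6, 21.0 and 25.3 CPM in MITF/TFEB DKO libraries. These lay below the 41.9, 47.7 and 50.4 CPM of the parental cells. Trim25, Oas3, Ripk3, Trex1 and Aim2 were not analysed here.

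**Figure D4:**
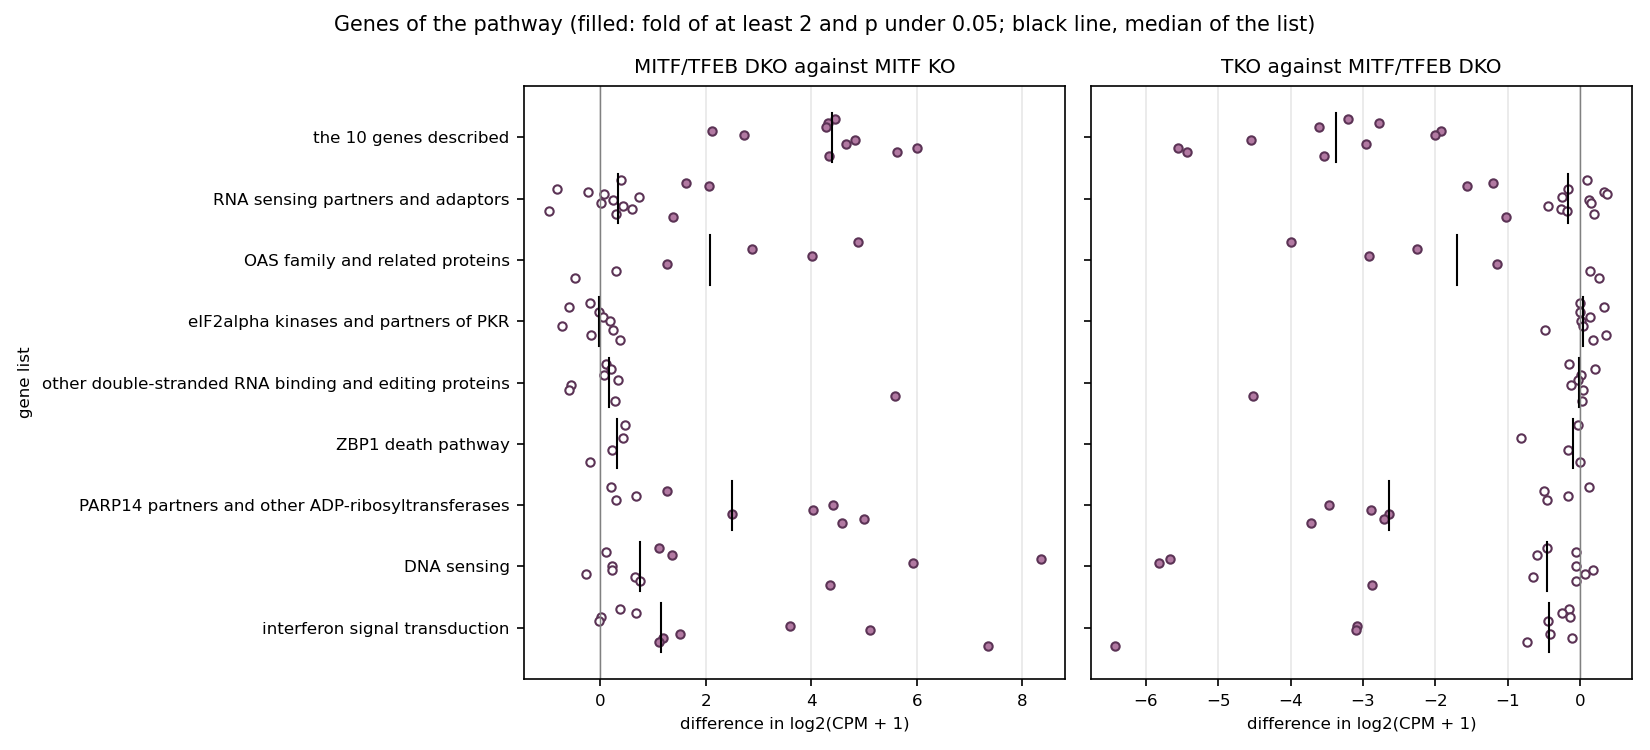
Difference in log2(CPM + 1) for the 10 genes and for the genes of 8 lists (rows), in the MITF/TFEB DKO relative to the MITF KO (left) and the TKO relative to the MITF/TFEB DKO (right); each point is a gene, filled points passed the threshold and black lines are medians. The 10 genes have medians of 4.39 and -3.37, and the kinases and partners of PKR have -0.03 and 0.04.

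Genome neighbourhoods and markers were set beside the results. The median difference of the 100 genes around each of the 10 genes lay between -0.411 and 0.374 in the comparisons made, while the change nearest to 0 among those of the 10 genes in the MITF KO, the TKO and both DKOs (set relative to the MITF KO) was -1.25, for Adar in the TKO. In the MITF/TFEB DKO relative to parental cells it was -0.396 around Oasl2, whose own difference was -0.49, and 0.274 around Adar, whose own was 0.76. The summed leukocyte markers, of which Lyz2, Fcer1g and Cd74 had rows, stood at 2.29 to 3.09 CPM in the parental cells, 1.93 to 2.07 CPM in MITF KO libraries, 3.90 to 5.90 CPM in MITF/TFE3 DKO libraries, 3.06 to 5.08 CPM in MITF/TFEB DKO libraries and 3.06 to 4.09 CPM in TKO libraries. The summed melanocyte markers stood at 26130 to 26950 CPM in the parental cells and 38410 to 40320 CPM in MITF KO libraries. The sum was 29940 to 32710 CPM in MITF/TFE3 DKO libraries, 17180 to 19640 CPM in MITF/TFEB DKO libraries and 15830 to 16860 CPM in TKO libraries. Dct weighed most in it, with means of 17751 CPM (parental), 29022 CPM (MITF KO) and 14551 CPM (MITF/TFEB DKO). None of the 7 markers was called between the MITF KO and parental libraries. By mean, Tyrp1, Dct, Sox10 and Mitf were higher in the MITF KO, and Pmel, Tyr and Mlana lower. Set against parental libraries, the MITF/TFEB DKO had Pmel, Tyr, Tyrp1 and Mlana downregulated. Only Sox10 had a higher mean there, 1053 against 731 CPM. Pecam1, the endothelial marker with a row, had 7.73 to 8.59 CPM in the parental cells, 0.0545 to 0.482 CPM in MITF KO libraries and 0.0796 to 0.627 CPM in MITF/TFEB DKO libraries. The 2 fibroblast markers summed to 9.73 to 12.5 CPM in the parental cells, 32.7 to 41.5 CPM in MITF KO libraries and 34.4 to 45.3 CPM in MITF/TFEB DKO libraries. The part of these markers in the results was not tested.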

How the data were processed

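Poly(A) RNA of 8 B16-F10-luc2 lines was sequenced from the 3′ end (QuantSeq Forward). Per the labels and the submitters' processing notes, reads were checked with FastQC 0.11.9, trimmed with Trim Galore 0.6.5 and cutadapt 2.10, mapped with STAR 2.7.8a to mm39 and normalized with edgeR. The deposited values are a signal that is never negative, CPM scaled by library factors, with totals of 933263 to 1081080. The counting tool, its strand setting and the annotation are not given in the sources used here. Columns of samples from elsewhere numbered 0. The values step in units of 1 read, which gave back whole reads (99.99% to 100% of values within 0.1 of a whole number).

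Samples were grouped by genotype in the labels. log2(CPM + 1) was tested with limma 3.58.1 (variance trend, 24 libraries in 1 fit, 16 residual degrees of freedom) in 11 comparisons of lines and 2 differences between effects, without a filter on low values. As an alternative, edgeR 4.0.16 (quasi-likelihood) was run on these reads, and it called the same number of the 10 genes in each comparison. Steps were tested on simulated data. Positions are from GENCODE M39 (GRCm39, the same assembly as mm39), where Ddx58 is listed as Rigi. The 10 genes, the lists and the rules were chosen with earlier results of these data known. Some genes of the lists are not reported here and were left out of their counts. Named from each list were at most 4 genes with the largest change among those called in the MITF/TFEB DKO (relative to parental cells) or the TKO (relative to the MITF/TFEB DKO), the 2 most abundant where fewer than 2 were called, beside the 6 genes of like pattern and the targeted genes. R 4.3.3, Python 3.11.15, numpy 2.4.6, pandas 2.3.3, scipy 1.17.1 and matplotlib 3.10.9 were used.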

Additional observations from a re-analysis of the deposited data

Results flagged for a closer look

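The 10 genes were flagged for effects that differed between backgrounds, by limma contrasts of effects within 1 fit (Benjamini-Hochberg adjusted over 12010 genes). The effect of losing TFE3 in lines without MITF, taken without TFEB minus with TFEB, was negative for each of the 10, in log2 units: Ddx58 -7.704, Ifih1 -7.02, Dhx58 -7.09, Eif2ak2 -3.73, Adar -4.21, Zbp1 -6.596, Oas1a -7.62, Oas2 -10.76, Oasl2 -10.52 and Parp14 -6.91. The highest adjusted p among them was 2.61e-13. The effect of losing TFEB, taken without MITF minus with MITF, was positive for each: Ddx58 4.93, Ifih1 5.29, Dhx58 5.79, Eif2ak2 2.59, Adar 3.002, Zbp1 6.19, Oas1a 5.55, Oas2 6.29, Oasl2 7.72 and Parp14 5.59, with a highest adjusted p of 1.02e-10. Of all 12010 genes, 13.1% were called lower in the first of these contrasts and 17.7% higher in the second. No explanation of the differences in the 10 genes was tested, and each genotype is 1 line.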

How the results depend on the processing

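The number of the 10 genes called was tested under edgeR on the recovered reads, pseudocounts of 0.25 and 5, a mean CPM of at least 5, quantile normalization, size factors by the median of ratios, limma without a variance trend, fits of only the libraries compared, an adjusted p under 0.05, the replicate block and each replicate left out. With a pseudocount of 5, 1 gene instead of 2 was downregulated in the TFEB/TFE3 DKO and 0 instead of 1 in the MITF/TFE3 DKO, both relative to parental cells. A larger pseudocount shrinks the fold of genes with few reads. With replicates left out, the count of downregulated genes in the MITF/TFE3 DKO relative to parental cells ranged from 0 to 1 (0 without MITF/TFE3 DKO replicate 1, where Oasl2 differed by -0.91). The count higher in the MITF/TFEB DKO than in the MITF/TFE3 DKO ranged from 1 to 2 (2 without MITF/TFE3 DKO replicate 2 or 3, where Parp14 differed by 1.04 in either case). All other counts stayed within 1.5 times. Of the values of single genes under the alternatives, 2166 kept their direction and their side of the threshold, 9 fell below it, 5 rose above it and 0 reversed. Of the 9, 6 came with the pseudocount of 5, among them Zbp1 in the TKO relative to parental cells (-0.96) and in the MITF/TFE3 DKO relative to the MITF KO (0.71). Zbp1 in the TFE3 KO relative to parental cells also fell below it with quantile normalization (-0.98) and without TFE3 KO replicate 1 (-0.96).

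Libraries with the same replicate number correlated at 0.0222 on average (-0.66 to 0.77 over 84 pairs) in their deviations from the line means. On average over other lines, 11 of 24 correlated best with libraries of their own number. With so wide a range, these values do not settle whether the numbers pair some of the libraries. With the replicate block, the counts of genes called were the same in every comparison, for example 10 of 10 in the MITF KO relative to parental cells.

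The precision is limited by depth for Zbp1, Oas2 and Oasl2 in the MITF KO and TKO, and for Dhx58 and Oas1a in the MITF KO, where single libraries held 0 to 21 reads. Oas1a and Oas1g share sequence. Each genotype is 1 line with 3 libraries.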

Other observations

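The coefficient of variation of Oas1a between the libraries of a line was the highest of the 10 genes in 5 lines (parental cells, TFE3 KO, TFEB KO, TFEB/TFE3 DKO and MITF/TFEB DKO, 16.4% to 41.4%) and not in the MITF KO, MITF/TFE3 DKO and TKO. The summed level of Oas1a and Oas1g was 21.2, 46.6 and 28.0 CPM in the libraries of the TFEB KO. It was 23.8, 51.7 and 26.5 CPM across TFEB/TFE3 DKO libraries, and 39.8, 63.8 and 79.2 CPM across MITF/TFEB DKO libraries. The share of Oas1g in that sum moved less, from 28.6% to 31.2%, from 23.7% to 30.5% and from 26.3% to 28.8%. The neighbouring family member Oas2 had 28.8, 30.8 and 35.3 CPM in the TFEB KO. The cause of the spread was not tested.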
